A study of Mus musculus with 9 samples.

Results

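Pcbd1 and 5 further genes of tetrahydrobiopterin metabolism (Pcbd2, Gch1, Qdpr, Pts and Spr) were followed across RNA-seq libraries of mouse footpad basal keratinocytes. They are 6 of the 22399 genes in the deposited table and were taken by their gene names. Pcbd1 was chosen by its FPKM in the aged libraries, which were high, so its aged differences are given as descriptions without a test, and the other 5 genes were added as enzymes or relatives of the same pathway. The series held 9 libraries of cells sorted from plantar skin as CD49f positive and CD34 negative, all from wild-type C57BL/6 mice. The 3 aged libraries came from animals of 24 months, whose diet the labels do not give. The 3 HFD libraries came from animals of 5 months on a high fat diet, and the 3 control libraries from animals of 5 months on a normal diet. The labels do not say whether libraries of a group came from separate animals, so every p-value reflects sample-to-sample spread alone, some of which may be technical. Levels are FPKM, that is fragments scaled for gene length and library depth, as the authors deposited them. Differences are of log2(FPKM + 1), tested with limma, a linear model with a spread shared across genes, in the 10367 genes averaging 1 FPKM or more over the 9 libraries, and they understate the change of low genes. Genes were called where the p-value, adjusted by Benjamini-Hochberg over all of these genes, was under 0.05.

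Tetrahydrobiopterin is the cofactor of the aromatic amino acid hydroxylases, of the nitric oxide synthases and of alkylglycerol monooxygenase. It is built from GTP by Gch1, Pts and Spr in turn. After use by the aromatic amino acid hydroxylases it leaves the enzyme as a carbinolamine that Pcbd1 dehydrates. Qdpr then reduces the product back to the active cofactor. Pcbd1 is also known as DCoH, a coactivator in the nucleus, and Pcbd2 is its close relative with both activities. In skin the cofactor is known for its part in supplying tyrosine for pigment.

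The depth of each library, estimated from the FPKM that a single read gives, was 23544047 to 35822446 reads, and each value of the 6 genes came out as a whole number of reads to within a tolerance of 0.02. The basal keratins Krt5 and Krt14 were between 10316 and 14788 FPKM in every library, and Cd34, the marker sorted against, did not exceed 0.0671 FPKM. Of the 8 melanocyte markers, 0 reached a mean of 1 FPKM, and their summed level was 0.892 to 1.31 FPKM in aged, 0.744 to 1.35 in HFD and 1.02 to 1.12 in control libraries. Tyr, which makes melanin, was listed at 0 in every library but aged replicate 3, which had 0.0229 FPKM. The 5 markers of differentiating keratinocytes summed to 6420 to 8843 FPKM in aged, 4892 to 6824 in HFD and 4509 to 5936 in control libraries, so this list was higher in each aged than in each control library. That sum was carried by the suprabasal keratins Krt1 and Krt10, which averaged 1579 and 4639 FPKM over the 9 libraries, beside 27.7 FPKM for Lor. Krt1 rose in aged against control by 0.61 ± 0.13 (SE, limma adjusted p = 0.0198). Krt10, Ivl, Lor and Flg were not called in that comparison (limma adjusted p from 0.0761 to 0.821). Lists of other cell types rested on single detected genes and also moved: that of T cells, carried by Thy1, summed to 26.0 to 33.9 FPKM in aged, 32.0 to 38.4 in HFD and 46.2 to 53.4 in control libraries, that of sweat gland, carried by Acta2, to 3.88 to 6.08, 12.2 to 16.6 and 6.78 to 8.36 FPKM, and that of fibroblasts, carried by Dcn, to 3.48 to 4.45, 1.498 to 2.55 and 4.51 to 6.64 FPKM in the same order of groups. In bulk RNA, a change in the share of such cells and a change in RNA per cell cannot be told apart, and the part of these shifts in the results given here was not tested.

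Pcbd1 lies on chromosome 10 (GRCm38, chr10:61089331-61094324, plus strand), with 4 exons of 817 bases in all. It had 24.7, 26.1 and 24.7 FPKM in aged replicates 1 to 3, 8.16, 8.31 and 5.59 FPKM in HFD replicates and 5.16, 6.35 and 5.25 FPKM in control replicates. All 3 aged libraries lay far above the other 6, while HFD replicate 3 fell inside the control range. The mean was 25.2 ± 0.779 FPKM in aged, 7.36 ± 1.53 in HFD and 5.59 ± 0.660 in control cells (SD, n = 3 each). That is 4.51 times the control mean and 3.42 times the HFD mean. On the log2(FPKM + 1) scale, aged exceeded control by 1.995 ± 0.12 and exceeded HFD by 1.66 ± 0.12 (SE). These values rank Pcbd1 9th among 10367 rises against control and 4th against HFD, which is a description of how it was picked. The SEs of these differences do not allow for that picking. The levels rest on 669, 677 and 620 estimated reads in aged, 237, 184 and 118 in HFD and 137, 125 and 134 in control libraries. No stretch of 50 bases of its transcripts was shared with another annotated gene, and no annotated gene overlapped it.

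**Figure D1:**
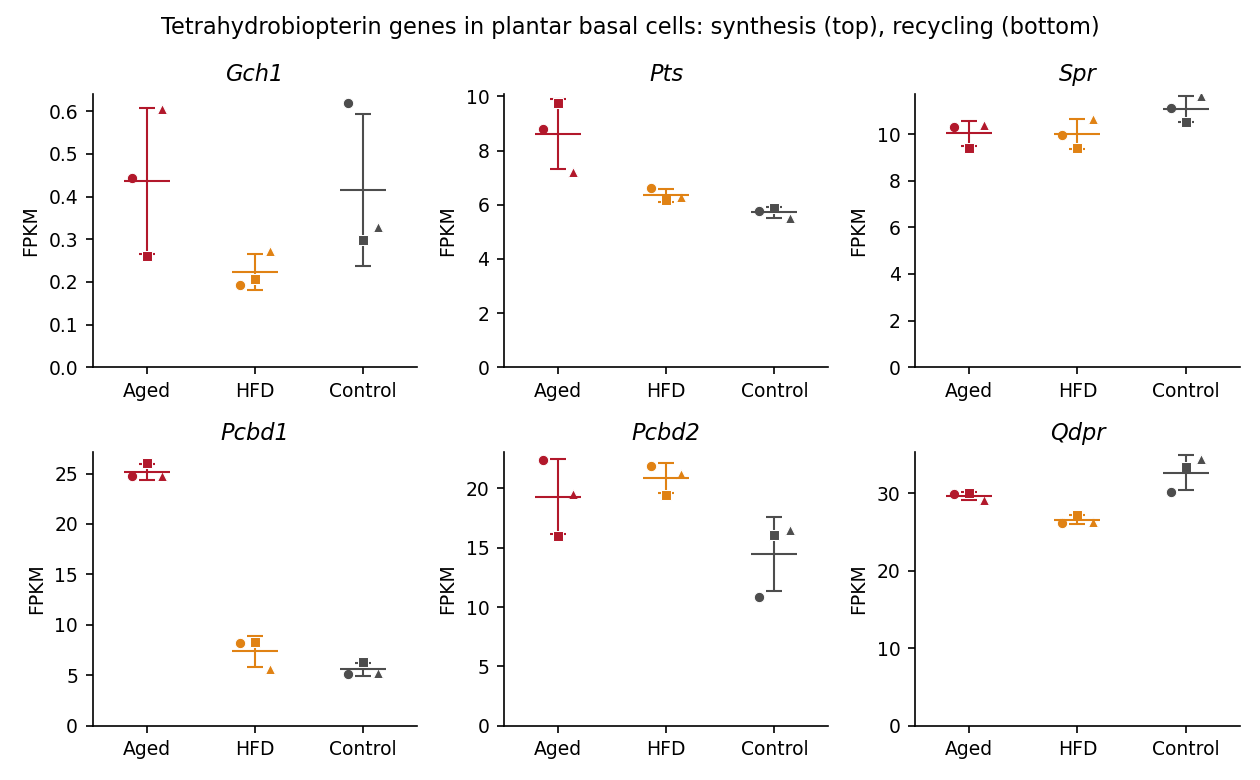
FPKM of the 6 genes in each library, with synthesis enzymes in the upper row and recycling genes in the lower row, by group (circles, squares and triangles are replicates 1, 2 and 3, and bars are the mean ± SD of 3 libraries). Pcbd1 sits between 24.7 and 26.1 FPKM in aged cells and at or below 8.31 FPKM in all HFD and control libraries, Pts is highest in aged cells, and Gch1 stays under 1 FPKM throughout.

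The comparison of HFD with control was not itself used to pick Pcbd1. It shares the control libraries with the aged rise, so its p-value may not be independent of the picking. The mean of 7.36 FPKM in HFD against 5.59 FPKM in control gave a log2 difference of 0.33 ± 0.12 (SE, 95% interval 0.06 to 0.60). It was not called, with a limma adjusted p of 0.0884 (unadjusted p = 0.022). Of the 3 HFD libraries, 2 were above all controls. Without HFD replicate 3, the lowest HFD library, the difference was 0.49 with a limma adjusted p of 0.0135. Without any other single HFD or control library it was not called (limma adjusted p from 0.0866 to 0.26).

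The 250 bases before the starts of Pcbd1 and Pcbd2 are shown because the relatives differ in the base composition there. Whether this bears on their levels was not tested. Both are RefSeq sequences on GRCm38.p6, from chr10:61089081-61089330 on the plus strand for Pcbd1 and chr13:55727118-55727367 on the plus strand for Pcbd2. Capitals mark CG pairs, the sites at which mammalian DNA is methylated.
Pcbd1: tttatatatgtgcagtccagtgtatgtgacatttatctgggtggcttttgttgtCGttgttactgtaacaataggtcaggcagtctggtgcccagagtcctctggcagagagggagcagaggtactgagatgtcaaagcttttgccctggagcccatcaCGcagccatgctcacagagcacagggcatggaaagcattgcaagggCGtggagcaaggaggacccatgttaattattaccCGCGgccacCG
Pcbd2: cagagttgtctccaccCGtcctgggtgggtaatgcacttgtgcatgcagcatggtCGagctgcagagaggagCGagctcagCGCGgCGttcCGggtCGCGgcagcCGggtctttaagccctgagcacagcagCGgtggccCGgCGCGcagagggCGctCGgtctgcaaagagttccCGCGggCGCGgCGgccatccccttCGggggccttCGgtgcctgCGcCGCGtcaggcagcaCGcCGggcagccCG
The Pcbd1 window was 51.6% G and C and held 6 CG pairs, the median of 32851 windows of the same length before annotated starts. That of Pcbd2 was 70.8% G and C and held 29. The other 4 genes had 14 to 21 pairs, and a count of at least 14 was found in 29.4% of all windows. The GC box GGGCGG, in 32.7% of all windows on either strand, was present in those of Gch1, Qdpr, Pts and Spr and in neither sequence shown. Dyrk1b, a kinase that binds Pcbd1, averaged 6.72 ± 0.919 FPKM in aged, 5.82 ± 0.930 in HFD and 5.50 ± 0.880 in control cells and was not called (lowest limma adjusted p = 0.25, for aged against control).

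Of the 3 nearest protein-coding genes on each side of Pcbd1, 4 reached the expression minimum. Limma called 0 of these 4 higher in aged cells in either comparison. Of all genes 4.01% were called higher against control and 3.54% against HFD, so 0 of 4 is near the share of all genes. Sgpl1 (chr10:61098642-61147703, minus strand), the lyase that ends sphingosine phosphate signalling, had 22.3 ± 1.54 FPKM in aged, 20.3 ± 1.22 in HFD and 22.1 ± 0.400 in control cells. Its log2 difference between aged and control was 0.01 ± 0.07 (SE, limma adjusted p = 0.943). Slc29a3, a nucleoside transporter of lysosomes, and Adamts14, a protease of procollagen, had -0.03 ± 0.08 and 0.03 ± 0.12 in aged against control. Unc5b, a netrin receptor, fell in aged against control by 0.47 ± 0.13 (adjusted p = 0.0496), to 8.39 ± 1.04 FPKM in aged against 12.02 ± 1.96 FPKM in control cells. This call ended in 9 of 17 alternatives, among them leaving out control replicate 2, control replicate 3, aged replicate 1 or aged replicate 2, with an adjusted p up to 0.214.

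Pcbd2, on chromosome 13 (chr13:55727368-55776830, plus strand), had 22.4, 16.0 and 19.5 FPKM in aged, 21.9, 19.5 and 21.2 FPKM in HFD and 10.9, 16.1 and 16.5 FPKM in control libraries. All 3 HFD libraries were above all controls, while aged replicate 2 lay within the control range. Pcbd2 rose in HFD against control by 0.52 ± 0.15 (SE, limma adjusted p = 0.0354), to a mean of 20.9 ± 1.26 FPKM in HFD against 14.5 ± 3.14 FPKM in control cells (SD, n = 3 each). That call ended without control replicate 1 or 2 or any single HFD library (adjusted p up to 0.104) and with no filter on low values (0.193). In aged against control the log2 difference of 0.40 ± 0.15 was not called (adjusted p = 0.116, 95% interval 0.08 to 0.72), and it was 0.22 without control replicate 1. In aged against HFD it was -0.12 ± 0.15 (adjusted p = 0.674, 95% interval -0.44 to 0.21).

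The balance of the pair therefore differed between groups. Pcbd1 made up 52.5%, 61.9% and 55.9% of the summed FPKM of Pcbd1 and Pcbd2 in aged libraries, 27.2%, 29.9% and 20.9% in HFD and 32.2%, 28.3% and 24.2% in control libraries. Pcbd1 was thus the more abundant of the pair per length in each aged library and the less abundant in each other library. Their sum was 44.5 ± 2.499 FPKM in aged, 28.2 ± 1.68 in HFD and 20.1 ± 3.52 in control cells (SD, n = 3 each). These shares contain the values by which Pcbd1 was picked and were not tested.

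**Figure D2:**
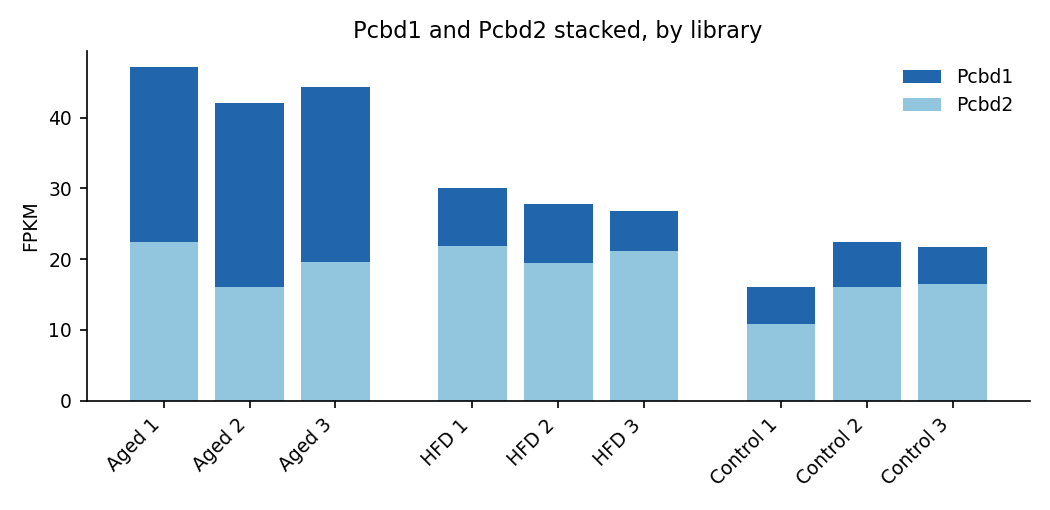
FPKM of Pcbd2 (light, lower part) and Pcbd1 (dark, upper part) stacked for each of the 9 libraries, aged at the left, HFD in the middle and control at the right. The dark part makes up 52.5% to 61.9% of the bar in aged libraries and 20.9% to 32.2% in all others.

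Gch1, GTP cyclohydrolase, which catalyses the first and usually limiting step of synthesis, was the least abundant of the 6 genes. It had 0.444, 0.262 and 0.605 FPKM in aged, 0.194, 0.207 and 0.272 FPKM in HFD and 0.620, 0.299 and 0.328 FPKM in control libraries. HFD replicates 1 and 2 were below all other libraries, and HFD replicate 3 was above aged replicate 2 only. With a mean of 0.359 FPKM over all libraries it did not reach the minimum for testing, although 35 to 126 reads stood behind each value. Fitted with no filter, its log2 difference was 0.02 ± 0.11 in aged against control and -0.20 ± 0.11 in HFD against control (SE, limma adjusted p = 1 and 0.467). The 95% intervals were -0.25 to 0.29 and -0.47 to 0.07. Gchfr, the feedback regulator that binds Gch1, was listed at 0 in 7 libraries, with 0.0976 FPKM in aged replicate 2 and 0.0643 FPKM in control replicate 2. The length used for Gch1 was 6251 bases and that for Pts 6101 bases, the merged exons of all annotated transcripts. For Pts these cover 85.8% of the gene, and its FPKM depends on that model.

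Pts, pyruvoyl-tetrahydropterin synthase, which takes the product of Gch1 to the next intermediate, lies on chromosome 9 (chr9:50521617-50528724, minus strand). It had 8.81, 9.77 and 7.22 FPKM in aged, 6.60, 6.16 and 6.27 FPKM in HFD and 5.78, 5.89 and 5.50 FPKM in control libraries. The 3 groups did not overlap, with aged highest and control lowest. The share of all genes that separate in this way was not counted, so such separation, here and for the other genes, is a description. Pts rose in aged against control by 0.51 ± 0.10 (SE, limma adjusted p = 0.0127), to 8.60 ± 1.29 FPKM in aged against 5.72 ± 0.204 FPKM in control cells (SD, n = 3 each), and this call held without any single library (adjusted p up to 0.0488). It ended with no filter on low values (0.0686). Pts rose in aged against HFD by 0.38 ± 0.10 (adjusted p = 0.0375). The call against HFD ended without any single HFD library, aged replicate 1 or aged replicate 2 (adjusted p up to 0.114), with only the 6 libraries compared (0.0657) and with no filter (0.135). In HFD against control the difference was 0.13 ± 0.10 (adjusted p = 0.382, 95% interval -0.08 to 0.34), and it was -0.014 after a correction that removed a curve on GC content from each library.

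Spr, sepiapterin reductase, which completes synthesis, lies on chromosome 6 (chr6:85130176-85137766, minus strand) and held near 10 FPKM in all groups. It had 10.3, 9.43 and 10.4 FPKM in aged, 9.96, 9.40 and 10.7 FPKM in HFD and 11.1, 10.5 and 11.6 FPKM in control libraries. All aged libraries were below all control libraries, and HFD overlapped both. The log2 differences were -0.13 ± 0.08 in aged against control and -0.14 ± 0.08 in HFD against control (SE, limma adjusted p = 0.307 and 0.233). The 95% intervals were -0.30 to 0.04 and -0.30 to 0.03. Of its 50-base stretches 2.40% were shared with other genes, mostly the pseudogene Spr-ps1.

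Qdpr, dihydropteridine reductase, which closes the recycling loop after Pcbd1, was the most abundant of the 6 genes per length. It lies on chromosome 5 (chr5:45434021-45450236, minus strand) and had 29.8, 30.0 and 29.1 FPKM in aged, 26.2, 27.2 and 26.3 FPKM in HFD and 30.1, 33.4 and 34.5 FPKM in control libraries. Control libraries were above all others, and HFD was below aged without overlap. Qdpr fell in HFD against control by 0.28 ± 0.07 (SE, limma adjusted p = 0.0176), to 26.6 ± 0.558 FPKM in HFD against 32.7 ± 2.24 FPKM in control cells (SD, n = 3 each). Leaving out control replicate 2, control replicate 3, HFD replicate 1 or HFD replicate 3 ended that call, with an adjusted p up to 0.0647. In aged against control the difference was -0.13 ± 0.07 (adjusted p = 0.245, 95% interval -0.28 to 0.02), and in aged against HFD it was 0.15 ± 0.07 (adjusted p = 0.192). An antisense gene, Gm42413, covers 18.6% of the exon bases of Qdpr, and the strand setting of the counting is not given in the sources used here. The corresponding overlap for Pcbd2 is 4.95%, with 4930451E10Rik.

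**Figure D3:**
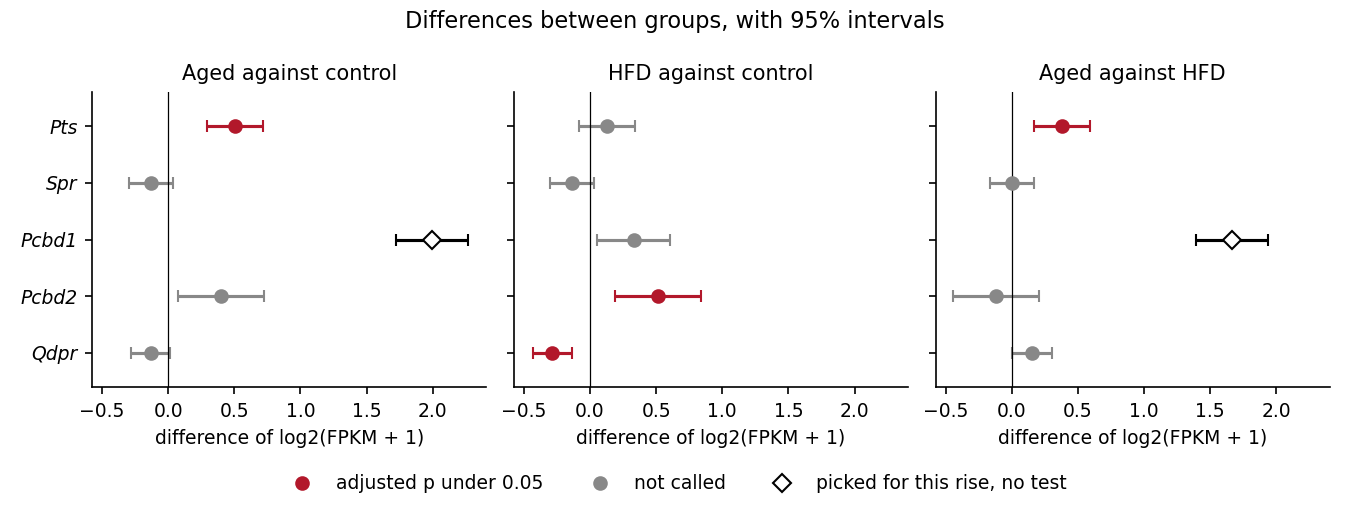
Differences of log2(FPKM + 1) with 95% intervals for the 5 genes above the expression minimum, in aged against control, HFD against control and aged against HFD (filled red, adjusted p under 0.05; grey, not called; open diamonds, Pcbd1 in the comparisons it was picked for, without a test). The intervals of the open diamonds do not allow for the picking and are descriptions only. Outside the picked values, only Pts in the aged comparisons and Pcbd2 and Qdpr in HFD against control were called.

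Of the 4 tested genes other than Pcbd1, 1 was called in aged against control and 1 in aged against HFD, in both cases Pts and upward. Among all 10367 genes 7.76% were called in aged against control (4.01% higher and 3.74% lower) and 7.99% in aged against HFD (3.54% higher and 4.45% lower). In HFD against control 2 of 5 were called, Pcbd2 higher and Qdpr lower, against 17% of all genes, of which 8.26% were higher and 8.76% lower. The median log2 difference of all genes was -0.0056, -0.0027 and 0.0094 in aged against control, aged against HFD and HFD against control. Scaling each library to its total FPKM gave 597 genes higher and 1165 lower in HFD against control, beside 856 and 908 without it. In aged against control it gave 360 higher and 507 lower, beside 416 and 388 without it. The calls of Pcbd2, Qdpr and Pts held under that scaling. The 2 comparisons with control share the control libraries, and the 2 with aged share the aged ones. Over the 9 libraries, Pearson's r with Pcbd1 on the log2 scale was 0.91 for Pts, 0.34 for Pcbd2, 0.22 for Gch1, -0.08 for Qdpr and -0.52 for Spr. These values describe how the group means line up in the same libraries and carry no test.

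Among the enzymes that use the cofactor, only Agmo was expressed above the minimum. Agmo, alkylglycerol monooxygenase, cleaves ether lipids. It had 1.83, 1.26 and 1.71 FPKM in aged, 1.17, 0.934 and 1.03 FPKM in HFD and 0.510, 0.376 and 0.521 FPKM in control libraries. The 3 groups did not overlap, with aged highest and control lowest, which is a description as for Pts. The mean over all libraries was 1.04 FPKM, so Agmo passed the minimum only through the groups in which it was high, and its result is therefore given from the fit of all 22399 genes with no filter. In that fit Agmo rose in aged against control by 0.82 (limma adjusted p = 0.028), to 1.60 ± 0.300 FPKM in aged against 0.469 ± 0.0806 FPKM in control cells (SD, n = 3 each). In HFD, at 1.05 ± 0.118 FPKM, the difference from control of 0.48 was not called (adjusted p = 0.0524). Adjusted p-values of the filtered fit are not given for Agmo, since passing the filter rested on its group levels. Aged exceeded HFD by 0.34, which even the filtered fit did not call. The GC correction gave differences against control of 0.73 in aged and 0.33 in HFD. With a pseudocount of 0.1, which weighs low levels more, the differences against control were 1.58 in aged and 1.02 in HFD. Between 58 and 389 reads stood behind its values.

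The other 6 users examined were at or near 0. Th, Tph1, Tph2, Nos1 and Nos2 did not exceed 0.0983 FPKM in any library, the highest being Th in HFD replicate 3. Nos3, the endothelial nitric oxide synthase, reached 0.191 FPKM in control replicate 2. Of 4 genes of regulation and salvage, 2 were tested and limma called 0 in any comparison, with 0 at an unadjusted p under 0.05. Of all genes 17% were called in HFD against control, 7.76% in aged against control and 7.99% in aged against HFD. With 2 genes tested, a count of 0 does not set this list apart. Cbr1, a carbonyl reductase able to stand in for Spr, averaged 11.02 ± 0.906, 9.58 ± 1.70 and 9.62 ± 0.712 FPKM in aged, HFD and control cells.

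Of 14 tested purine genes listed for the supply of GTP, the starting material, 5 were lower and 0 higher in aged against control. Of all genes 3.74% were lower and 4.01% higher. The median log2 difference of the list was -0.14. The list includes Adss, of the adenine branch, which was not called (0.25 ± 0.09 SE, limma adjusted p = 0.11). Impdh1, the inosine monophosphate dehydrogenase that opens the guanine branch, fell to 11.8 ± 1.12 FPKM in aged against 15.6 ± 0.799 FPKM in control cells (log2 difference -0.38 ± 0.08 SE, limma adjusted p = 0.0232). Guk1, guanylate kinase, fell to 20.5 ± 1.301 FPKM in aged against 25.1 ± 0.940 FPKM in control cells (adjusted p = 0.0371). Adsl, Pfas and Gart, enzymes of purine ring synthesis, fell by 0.31 ± 0.07, 0.40 ± 0.10 and 0.27 ± 0.07. Impdh2 and Gmps, the other enzymes on the path to guanine nucleotides, had 55.7 ± 2.27 and 11.1 ± 0.917 FPKM in aged against 57.0 ± 2.23 and 11.2 ± 1.13 FPKM in control cells and were not called. Each of the 5 calls ended when some single libraries were left out, for Guk1, Adsl, Pfas and Gart any control library or aged replicate 1 or 2, and for Impdh1 control replicate 1 or 3 or aged replicate 1 (adjusted p up to 0.132). Those of Impdh1 and Guk1 also ended after the GC correction (0.0912 and 0.0931), those of Guk1, Adsl, Pfas and Gart with only the 6 libraries compared (up to 0.0888), and all but that of Adsl with no filter (up to 0.137).

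In HFD against control the same list had 2 of 14 genes higher and 3 lower, with a median of -0.02, beside 8.26% of all genes higher and 8.76% lower. Guk1, Pfas and Gart fell by 0.32 ± 0.07, 0.36 ± 0.10 and 0.24 ± 0.07 (SE), whereas Hprt, which salvages guanine, and Paics, another step of ring synthesis, rose by 0.32 ± 0.07 and 0.31 ± 0.08 (limma adjusted p = 0.0175 and 0.0217). Guk1 had 19.8 ± 0.872 FPKM in HFD against 25.1 ± 0.940 FPKM in control cells. Its HFD call held without any single library but not after the GC correction (0.0977). The others ended without control replicate 2, and also without HFD replicate 2 for Hprt, any HFD library for Paics, control replicate 1 or any HFD library for Pfas, and control replicate 3 or any HFD library for Gart (adjusted p up to 0.132). With no filter these 4 calls also ended (up to 0.129), as did those of Hprt, Pfas and Gart after the GC correction (up to 0.134). In aged against HFD limma called 0 of the 14 higher and 0 lower, with 1 at an unadjusted p under 0.05 and a median of -0.08, beside 7.99% of all genes called.

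**Figure D4:**
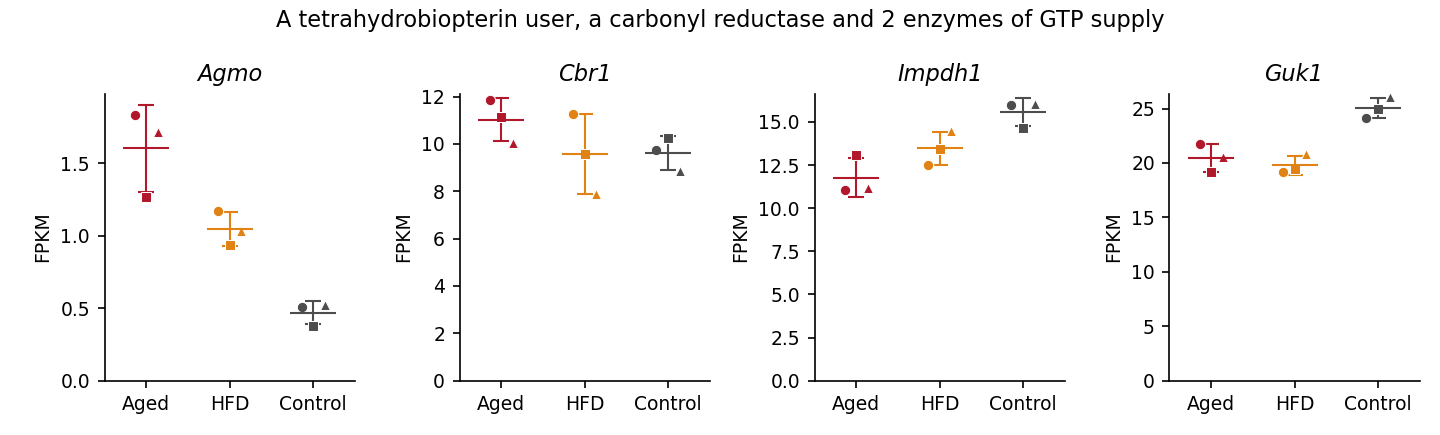
FPKM per library of Agmo, which uses tetrahydrobiopterin, of the carbonyl reductase Cbr1 and of Impdh1 and Guk1, which act in GTP supply (symbols are replicates, bars are the mean ± SD of 3 libraries). Agmo is highest in aged cells, at 1.26 to 1.83 FPKM, and lowest in control cells, at 0.376 to 0.521 FPKM, while Guk1 is highest in control cells, at 24.2 to 26.0 FPKM.

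The genes whose profile over the 9 libraries was most like that of Pcbd1, by Pearson's r of log2(FPKM + 1) among the 10366 other genes, had r between 0.94 and 0.97, and 50 genes exceeded 0.9. Pts ranked 41st. Since Pcbd1 was picked for its aged values, a gene had to be high in aged cells to be found in this way, and the libraries are shared, so no test is given. Closest was Coq8a, a mitochondrial protein needed for coenzyme Q, with 14.9 ± 0.315 FPKM in aged, 10.6 ± 0.286 in HFD and 10.5 ± 0.352 in control cells (r = 0.97). Ctsh, the lysosomal protease cathepsin H, had 16.6 ± 1.57, 9.46 ± 0.123 and 7.36 ± 0.562 FPKM in aged, HFD and control cells. Gsta3 and Mgst2, glutathione transferases, had means of 3.41 and 11.02 FPKM in aged, 1.05 and 5.67 in HFD and 1.18 and 5.57 in control cells. Axl, a receptor tyrosine kinase, had 34.1, 22.04 and 19.4 FPKM, and Mcam, a cell adhesion molecule, had 4.35, 1.95 and 1.21 FPKM in aged, HFD and control cells. The remaining 4 were Ndufa6, a subunit of respiratory complex I, Smarca2, an ATPase of chromatin remodelling, Tmem64, a membrane protein, and Mttp, which loads lipid onto lipoproteins. Their aged means were 52.9, 10.3, 7.39 and 1.52 FPKM, against control means of 41.3, 8.95, 3.55 and 1.10 FPKM. None of the 10 reached the 4.51-fold ratio of Pcbd1 between aged and control means.

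**Figure D5:**
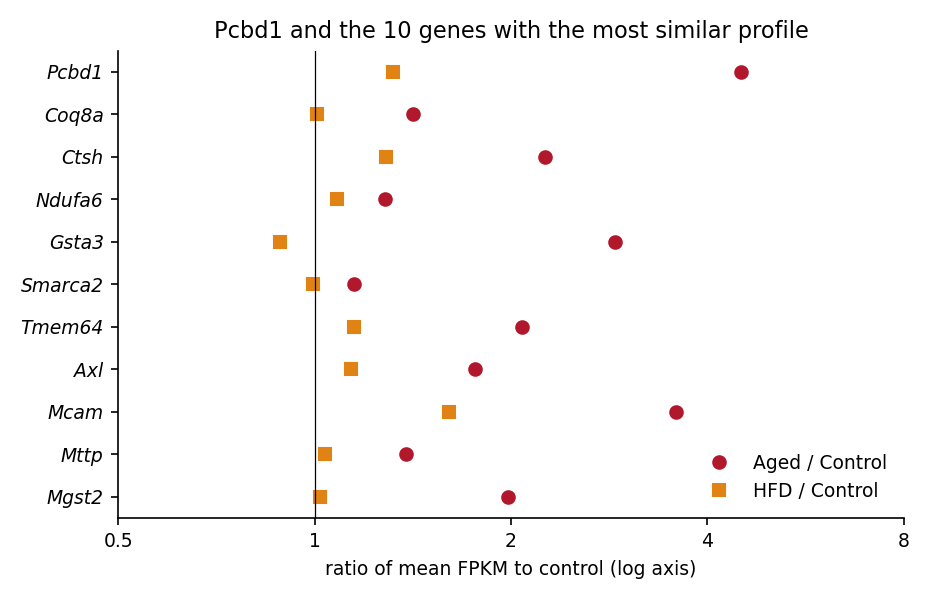
Ratio of the mean FPKM in aged (circles) and in HFD (squares) to that in control cells, on a log axis, for Pcbd1 and the 10 genes with the highest Pearson's r to it. Pcbd1 has the largest aged ratio of those plotted, 4.51, and an HFD ratio of 1.32.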

How the data were processed

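The authors deposited 1 table of FPKM for 9 libraries, 3 a group. Per the labels' protocols, RNA with an integrity number above 7 was made into TruSeq Stranded mRNA libraries and sequenced on an Illumina instrument. The build mm10 and the tools HTSeq 0.11.2, STAR 2.6.0c, DESeq2 1.30.0 and cutadapt are named, without roles, in the submitters' processing notes. The strand setting is not given in the sources used here. The deposited FPKM gave the same median-ratio size factor, 1.003, in each library.

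Linear models of log2(FPKM + 1) were fitted in R 4.3.3 (limma 3.58.1, a mean per group, eBayes with a trend, two-sided) to genes averaging 1 FPKM or more, with Benjamini-Hochberg adjustment over all of them, and checked on simulated data. Gene models came from GENCODE M21 (GRCm38), which matched 22285 of 22399 identifiers. For values up to 30 reads, FPKM times exon length was a whole multiple of 1 step per library in 97.5% to 98.2% (tolerance 0.02), which gave depth and reads. Member values rest on 35 to 1923 reads each. The GC correction subtracted a loess curve (span 0.5) per library.

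Named genes were the 6 members, called genes of 6 related lists (regulation and salvage, users, partners, GTP supply, amino acid breakdown, folate), the 10 profiles most like Pcbd1 and its 3 neighbours on each side. Some genes of these lists are not reported here. Members and lists were chosen with earlier results of these data known.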

Additional observations from a re-analysis of the deposited data

How the results depend on the processing

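Over 17 alternatives the aged differences of Pcbd1 ran from 1.95 to 2.16 against control and from 1.502 to 1.78 against HFD. Both were highest with a pseudocount of 0.1. These ranges describe the values for which Pcbd1 was picked and lend its rise no support. With no filter on low values limma adjusted over all 22399 genes, and the calls of Pcbd2 in HFD against control (0.52, adjusted p = 0.193) and of Pts in aged against control (0.51, 0.0686) and aged against HFD (0.38, 0.135) ended, leaving 1, 0 and 0 members called. Over all genes this gave 367 higher and 327 lower in HFD against control, 125 and 101 in aged against control, and 52 and 100 in aged against HFD. With only the 6 libraries compared, Pts in aged against HFD (0.38) had 0.0657, leaving 0 members called, and aged against control had 274 higher and 195 lower. The replicate block brought Pcbd1 in HFD against control (0.33) to a limma adjusted p of 0.0479 and ended no member's call. The labels do not say whether the replicate numbers pair libraries across groups. Correlations of same-numbered libraries ran from -0.05 to 0.27, and those of differently numbered ones from -0.29 to 0.22. The GC correction reversed the uncalled differences of Pts in HFD against control (-0.014) and Spr in aged against HFD (-0.012), with the same values when the replicate block was added, and gave 555 genes lower in HFD against control (598 with the block).

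Leaving out 1 library gave, in HFD against control, 0.24 to 0.49 for Pcbd1, 0.34 to 0.62 for Pcbd2, -0.34 to -0.25 for Qdpr, 0 to 1 members called, and 385 to 631 genes higher and 364 to 719 lower, both lowest without control replicate 2 and over 1.5 times below 856 and 908 also without each HFD library, and for lower genes without control replicate 3. In aged against control it gave 0.22 to 0.52 for Pcbd2 and 190 to 592 genes higher and 114 to 662 lower, over 1.5 times below 416 and 388 without control replicate 2 or 3 or aged replicate 1 or 2, and over 1.5 times above 388 without aged replicate 3. In aged against HFD it gave 0.29 to 0.49 for Pts, -0.22 to 0.0050 for Pcbd2, -0.035 to 0.048 for Spr, 0 to 1 members called, and 168 to 271 genes higher and 200 to 391 lower, over 1.5 times below 367 and 461 without any HFD library or aged replicate 1. The cause of these changes was not tested. At 35 to 126 reads, Gch1 is the member that depth limits most.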

Other observations

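The folate cycle is another pathway of pterin cofactors. Of 11 tested genes, limma called 1 higher and 2 lower in HFD against control, beside 17% of all genes called. In aged against control it called 0 higher and 1 lower, beside 7.76% of all genes, and in aged against HFD 1 higher and 3 lower, beside 7.99%. No test set the list apart from other genes. Aldh1l1, the cytosolic dehydrogenase of formyl folate, had 2.82 ± 0.224 FPKM in HFD against 4.68 ± 0.630 FPKM in control cells (SD, n = 3 each, log2 difference -0.57 ± 0.11 SE, adjusted p = 0.00701) and 5.55 ± 0.666 FPKM in aged cells, higher than HFD by 0.77 ± 0.11 (adjusted p = 0.00256). Aldh1l2, its mitochondrial counterpart, moved the other way, with 2.602 ± 0.395 FPKM in HFD against 1.26 ± 0.122 FPKM in control cells (0.67 ± 0.14, adjusted p = 0.0116) and 0.918 ± 0.347 FPKM in aged cells, lower than HFD by 0.92 ± 0.14 (adjusted p = 0.00386). The Aldh1l1 and Aldh1l2 calls held without any single library, and those of Aldh1l2 ended with no filter on low values (0.0671 and 0.0552). Slc19a1, the carrier of reduced folate, fell in HFD against control by 0.59 ± 0.13 (SE, limma), a call that ended without HFD replicate 1 (adjusted p = 0.05) and with no filter (0.0914). Shmt2, the mitochondrial serine hydroxymethyltransferase, fell in aged against control by 0.41 ± 0.09, lost when control replicate 2, control replicate 3, aged replicate 1 or aged replicate 2 was left out (up to 0.0692) or with no filter (0.0919). Mthfd2 and Tyms, of mitochondrial folate and of thymidylate synthesis, were lower in aged than in HFD by limma, with -0.67 ± 0.14 and -0.36 ± 0.09. These calls ended without HFD replicate 2 for Mthfd2 (0.0562) and without any HFD library or aged replicate 1 or 3 for Tyms (up to 0.0865), and for both with no filter (0.116 and 0.105).

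Of 8 genes that degrade phenylalanine and tyrosine, 5 were tested, and Tat and Hpd were listed at 0 in every library. Fah, which cleaves fumarylacetoacetate at the end of the path, fell in HFD against control by 0.40 ± 0.09 (SE, limma adjusted p = 0.0115), to 6.18 ± 0.653 FPKM in HFD against 8.46 ± 0.334 FPKM in control cells (SD, n = 3 each), and this call held without any single library. In aged against HFD it had 0.31 ± 0.09 (adjusted p = 0.0496), with 7.88 ± 0.525 FPKM in aged cells, a call that ended in 13 of 17 alternatives.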
